A study of Mus musculus with 2 samples.

Results

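The genes described here copy the genome in S phase and govern the step from G1 into S. They comprise 48 genes listed by name, of 12393 genes with a probe set of their own on the array: origin licensing factors, replication fork proteins, ribonucleotide reductase, and the cyclin, kinase, E2F and pocket protein genes of the G1-S transition. Each was read from its brightest probe set that the platform annotation gives to 1 gene, and all 48 had one. The study asked which transcripts differ in mouse embryonic stem cells when Dab2, the gene of an endocytic adaptor protein, is targeted. Both groups were clones of the E14tg2a line grown with LIF at 1000 U/ml and 10% fetal bovine serum, the cytokine that keeps such cells undifferentiated. The shDAB2 group was clone 4 of cells stably transfected with the shDAB2-285 hairpin plasmid, and the vector group was clone 9 of cells carrying the control plasmid. Each group was 1 clone on 1 Affymetrix mouse 430A array, so hairpin, clone and culture cannot be told apart, and no test across samples exists.

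Replication starts at origins bound by the origin recognition complex (ORC). With CDC6 and CDT1, ORC loads the MCM2-7 helicase in G1, and the kinases of S phase then fire the loaded helicases. At the fork the clamp PCNA, placed by replication factor C (RFC), tethers the polymerases, while replication protein A (RPA) coats single-stranded DNA. In most somatic cells this programme is switched on by E2F factors when cyclin-dependent kinases inactivate the pocket proteins. Mouse embryonic stem cells have a short G1 phase and are known for high cyclin E and CDK2 activity through much of the cycle.

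E2F factors bind DNA near the start sites of many of these genes, so the promoters of the members were read for such words. Of the 48 members, 40 had a promoter in the RefSeq table of GRCm38.p6, a window from 250 bases before to 50 bases after the start site. The words TTTCCCGC, TTTGGCGC, TTTCGCGC and TTTGCCGC were searched on both strands. A match lay in the windows of 16 of the 40 members (40.0%) and of 704 of all 27025 genes in the table (2.61%). The shorter word CCAAT occurred in 24 of the 40 members (60.0%) and in 41.1% of all genes. The word TTTGAA, the core of an element of G2-M promoters, occurred in 6 of the 40 (15.0%) and in 20.2% of all genes. In the windows of the members 1 pair of matches of different kinds overlapped. A match is a run of letters and not a measured binding site.

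The sequences below are chosen examples and not the members in order of difference. They set Ccne1, Rpa2 and Pcna, among the members that read highest in the shDAB2 clone, beside members that hold the E2F word upstream. Each is the stretch of 160 bases just before the start site, 5′ to 3′ on the strand of the gene, with E2F words in capitals; the word GCGGGAAA, for example, is TTTCCCGC on the other strand. Ccne1 (cyclin E1) lies at chr7:38107491-38107650, minus strand, and Rpa2 (the middle RPA subunit) at chr4:132768200-132768359, plus strand. Pcna lies at chr2:132253181-132253340, minus strand, and Cdk2 (the kinase partner of cyclin E) at chr10:128705052-128705211, minus strand. The helicase genes are Mcm5 at chr8:75109349-75109508, plus strand, and Mcm6 at chr1:128359706-128359865, minus strand. Orc1, the largest ORC subunit, lies at chr4:108579294-108579453, plus strand.
Ccne1: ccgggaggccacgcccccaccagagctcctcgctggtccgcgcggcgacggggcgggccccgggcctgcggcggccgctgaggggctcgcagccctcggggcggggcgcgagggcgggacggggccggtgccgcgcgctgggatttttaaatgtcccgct
Rpa2: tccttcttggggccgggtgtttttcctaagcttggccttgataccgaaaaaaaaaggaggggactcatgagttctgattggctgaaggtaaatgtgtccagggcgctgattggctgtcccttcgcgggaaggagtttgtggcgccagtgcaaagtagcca
Pcna: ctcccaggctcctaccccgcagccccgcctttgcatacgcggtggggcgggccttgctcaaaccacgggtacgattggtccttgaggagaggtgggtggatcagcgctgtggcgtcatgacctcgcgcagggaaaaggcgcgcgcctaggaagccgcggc
Cdk2: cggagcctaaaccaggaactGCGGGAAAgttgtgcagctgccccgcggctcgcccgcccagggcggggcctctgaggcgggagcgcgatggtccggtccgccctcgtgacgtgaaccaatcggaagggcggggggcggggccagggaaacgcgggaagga
Mcm5: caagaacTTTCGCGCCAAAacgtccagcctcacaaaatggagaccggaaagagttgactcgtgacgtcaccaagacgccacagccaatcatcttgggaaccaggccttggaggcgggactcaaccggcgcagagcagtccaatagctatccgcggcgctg
Mcm6: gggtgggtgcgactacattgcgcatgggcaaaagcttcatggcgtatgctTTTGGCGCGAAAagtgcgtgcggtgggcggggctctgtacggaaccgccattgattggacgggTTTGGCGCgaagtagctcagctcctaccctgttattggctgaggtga
Orc1: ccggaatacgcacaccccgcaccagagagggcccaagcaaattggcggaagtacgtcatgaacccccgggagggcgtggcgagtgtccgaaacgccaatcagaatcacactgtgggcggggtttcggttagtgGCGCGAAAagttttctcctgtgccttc
The stretches of Ccne1, Rpa2 and Pcna hold none of the 4 words. Mcm6 holds 3 and Mcm5 holds 2, in both cases with words on opposite strands that overlap, and Cdk2 and Orc1 hold 1 each. The CCAAT word lies within the stretches of Rpa2, Pcna, Cdk2, Mcm5, Mcm6 and Orc1, and not in that of Ccne1. These examples do not show that members reading higher lack the E2F word. Cdk2 holds one and read higher in the shDAB2 clone by 0.33 log2 units. Orc2 (0.46), Rfc1 (0.37) and Pole2 (0.35) read higher by more than Cdk2 and are not shown. Pole2 holds an E2F word at position 11 after the start site, outside the bases printed for each gene.

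The cells had the markers of their label on both arrays. All 8 embryonic stem cell markers looked up (Pou5f1, Sox2, Nanog, Zfp42, Esrrb, Dppa5a, Tdgf1 and Utf1) lay between 8.18 and 12.37 log2 units. The floor used below is 6.62, the median of all values, and a gene passes it if either array does. Of 6 primitive endoderm and 4 measured mesoderm markers 0 reached the floor. Of 7 fibroblast markers only Dcn did, at 6.62, of the neuroectoderm markers Nes and Tubb3 did, and of the trophectoderm markers only the keratin genes Krt8, Krt18 and Krt19, which were 1.64-fold to 2.49-fold lower in the shDAB2 clone. Dab2 itself read 6.33 in the shDAB2 clone against 6.64, 1.24-fold lower and close to the floor on both arrays; its next probe set lay below the floor and differed by -0.05.

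**Figure D1:**
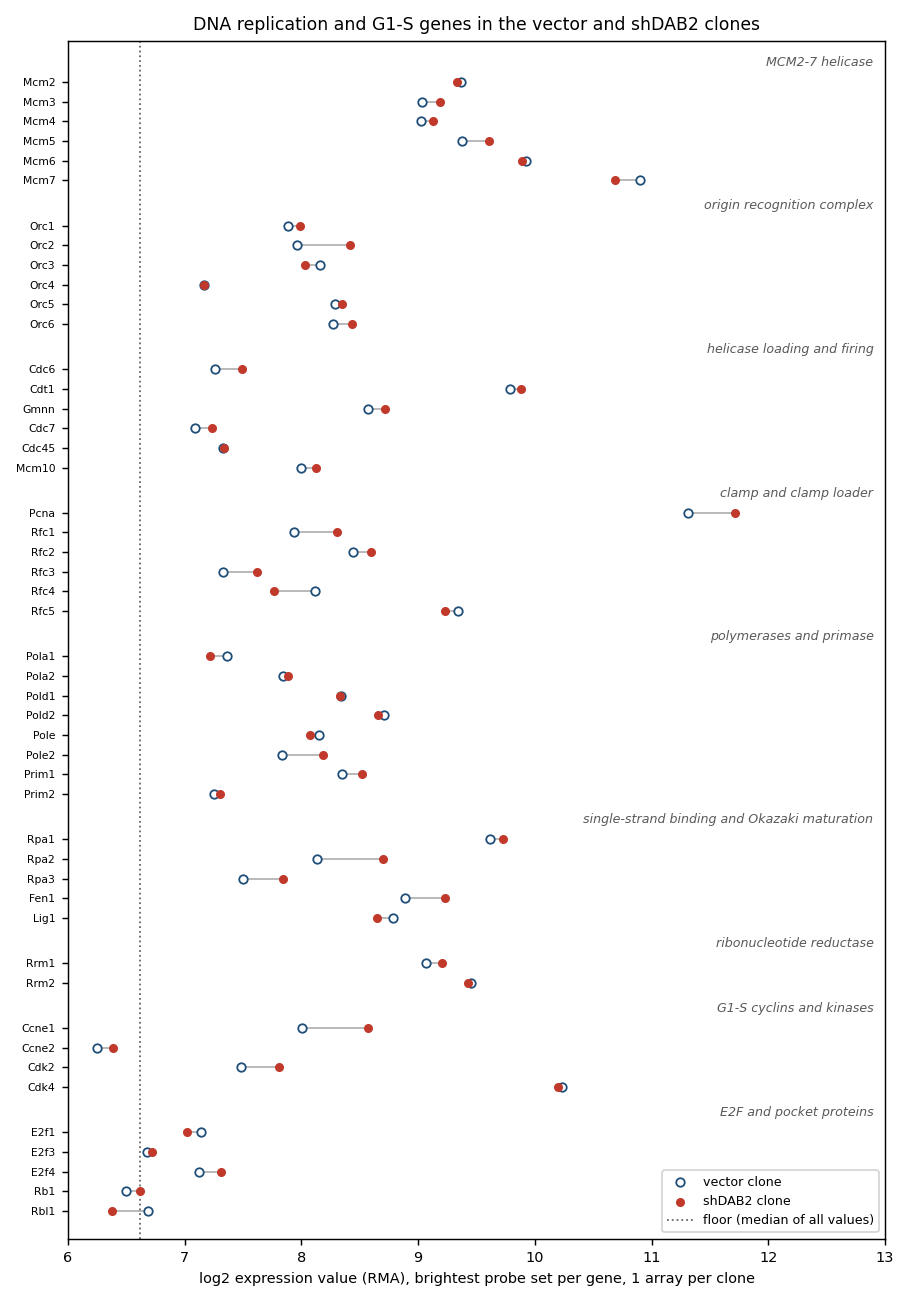
Log2 expression value (x axis) of each of the 48 genes (y axis, grouped by role) on the vector array (open circles) and the shDAB2 array (filled circles), from the brightest probe set of the gene; the dotted line is the floor of 6.62. Most filled circles lie to the right of the open ones, and the gaps are widest for Rpa2, Ccne1 and Orc2; distances between different genes are not comparable because each has its own probes.

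Most replication genes read slightly higher in the shDAB2 clone. Of the 48 genes 47 passed the floor; Ccne2, the second cyclin E gene, did not. Of these 47, 31 read higher and 16 lower (66.0% higher, against 50.0% of the 7269 genes above the floor). The median difference, shDAB2 minus vector, was 0.10 on the log2 scale, against 0.00 for all genes above the floor. Genes are counted as different here from 25% higher or 20% lower, a log2 difference of 0.32 either way. At least 25% higher were 9 of the 47: Rpa2, Ccne1, Orc2, Pcna, Rfc1, Pole2, Fen1, Rpa3 and Cdk2. That is 19.1% of the members, against a background of 4.91% of all genes. Only Rfc4 was at least 20% lower (2.13%, background 6.07%). None of the 47 reached 1.5-fold in either direction, where the backgrounds were 0.578% higher and 1.62% lower.

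These members are brighter than most genes, and differences are larger among brighter genes. Among the 3871 genes above a stricter floor of 7.33, 8.29% were at least 25% higher and 9.87% at least 20% lower. Of the 39 members above it 9 (23.1%) passed the first limit and 1 the other. Of the same 39, 26 read higher at all (66.7%, against 52.0% of genes). A single probe set has an SD of 0.11, estimated from the 2 brightest probe sets of 2502 genes, so the differences of Rpa2 and Ccne1 are several times that SD while 32 of the 47 members lie within 2 of it. This SD covers probes only, and the spread between cultures is not known. Over 21 members with 2 probe sets above the floor 16 had the same sign on both, against 75.7% of all such genes.

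**Figure D2:**
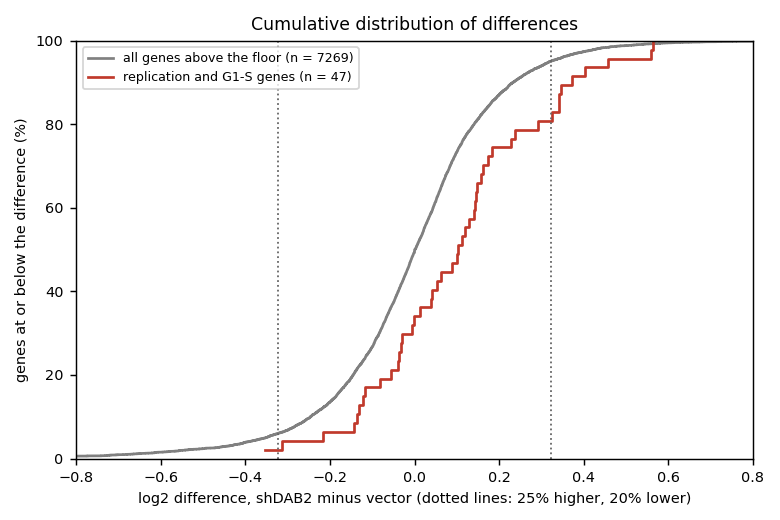
Cumulative percentage of genes (y axis) at or below each log2 difference, shDAB2 minus vector (x axis), for the 47 members above the floor and for all 7269 genes above it. The member curve lies to the right of the curve of all genes over most of its range, with medians of 0.10 and 0.00, and it ends at 0.56, short of 1.5-fold.

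ORC was uneven. Orc2, a core subunit, read 8.42 in the shDAB2 clone against 7.96 in the vector clone, 1.37-fold higher, and only 1.57% of genes above the floor were as far or farther higher. All 3 of its probe sets read higher in the shDAB2 clone, by 0.46, 0.30 and 0.34. The other 5 subunits lay inside the limits. Orc6, the smallest subunit, differed by 0.16, Orc1 by 0.10 and Orc5 by 0.06. Orc4 read 7.17 on both arrays, and Orc3 read lower by -0.13, although its dimmer second probe set gave 0.08.

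The factors that load and fire the helicase differed by small amounts. On the brightest probe set all 6 genes of this group read higher, where 50.0% of all genes above the floor did. Their median was 0.13 and none reached the limit. This lean depended on the probe set: the median was -0.070 over the 2 genes with a second probe set above the floor. Without probe sets of the types _s_at, _x_at and _a_at, 3 genes remained, with a median of 0.012. Cdc6, the ATPase that joins ORC to load the helicase, read 7.49 against 7.26 in the vector clone, a difference of 0.23. Gmnn encodes geminin, the inhibitor of CDT1, and differed by 0.15. Cdc7, the kinase that phosphorylates the loaded helicase, differed by 0.14, and Mcm10, which helps to activate it, by 0.13. Cdc45, a subunit of the active helicase, differed by 0.01. The direction of Cdt1, the loader that geminin binds, depends on the probe set: the brightest gave 0.09 and the next, also above the floor, gave -0.22.

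MCM2-7 is a ring of 6 related subunits, and its genes did not shift as a set: 3 read higher, 3 lower, none past the limits, with a median of 0.03. Mcm5 was the highest, at 9.61 in the shDAB2 clone against 9.37, a difference of 0.24. Mcm7 was the lowest, at 10.69 against 10.90, a difference of -0.22, and its other probe sets read lower as well, by -0.06, -0.19 and -0.15. The subunits thus spread over 0.45 log2 units between these extremes. Mcm4 differed by 0.10 and 0.15 on its probe sets. Mcm2 (-0.04) and Mcm6 (-0.04, and -0.18 on its second probe set) read slightly lower, and Mcm3 ranged from -0.02 to 0.15 over the 4 probe sets above the floor.

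Clamp and clamp loader genes held members at both ends. Pcna, the sliding clamp, read 11.71 in the shDAB2 clone against 11.31 in the vector clone, 1.32-fold higher; 2.53% of genes were as far higher. Rfc1, the large RFC subunit, read 8.31 against 7.94, 1.29-fold higher, and its other probe sets gave 0.38 and 0.18. Rfc3 differed by 0.29 and 0.13 on its probe sets, and Rfc2 by 0.16. Rfc4 went the other way, at 7.76 in the shDAB2 clone against 8.12, 1.28-fold lower, and its second probe set gave -0.23. Rfc5 differed by -0.12. The small subunits Rfc2 to Rfc5 form 1 complex with RFC1, and the differences of its 5 genes ran from -0.35 to 0.37.

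Of the single-strand binding and Okazaki fragment genes 4 of 5 read higher, where 50.0% of all genes above the floor did. Rpa2 had the largest difference of all 48 genes, at 8.70 in the shDAB2 clone against 8.13 in the vector clone. It was 1.48-fold higher, by 0.56 and 0.52 on its probe sets, and 0.729% of genes were as far higher. Rpa3, the smallest RPA subunit, read 7.84 against 7.50, 1.27-fold higher. Rpa1, the large DNA-binding subunit, differed by only 0.11 and 0.09 on its probe sets. Fen1, the nuclease that trims Okazaki fragments, read 9.23 against 8.89, 1.27-fold higher, on a probe set of a type that can also bind related transcripts (suffix _x_at); its second probe set gave 0.26. Lig1, the ligase that seals the trimmed fragments, read lower by -0.14.

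Polymerase and primase genes differed little. Of 8 genes 4 read higher and 4 lower, with a median of 0.02. The exception was Pole2, the second subunit of the leading-strand polymerase epsilon, at 8.18 against 7.84, 1.27-fold higher. The catalytic subunit gene Pole differed by -0.08, whereas the histone-fold subunits Pole3 and Pole4, which are not in the set of 48, differed by 0.23 each. Prim1, the catalytic primase subunit, differed by 0.17 and Prim2 by 0.05. Pola1 and Pola2 of polymerase alpha differed by -0.14 and 0.04. Pold2 of polymerase delta differed by -0.06. Its catalytic partner Pold1 gave -0.01 on the brightest probe set, another of the _x_at type, and -0.33 on the next, so its size is uncertain.

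Ribonucleotide reductase makes the deoxyribonucleotides for replication. Rrm1, the large subunit gene, read 9.20 against 9.06, a difference of 0.14, and 0.23 on its second probe set. Rrm2, the small subunit gene whose RNA is known to peak in S phase, gave -0.03, 0.07 and 0.05 on 3 probe sets.

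Among the regulators of S phase entry the cyclin E1 kinase pair read higher. Ccne1 stood at 8.57 in the shDAB2 clone against 8.01 in the vector clone, 1.47-fold higher, on its only probe set; 0.743% of genes were as far higher. Cdk2 read 7.81 against 7.49, a difference of 0.33 that lies just past the limit. The G1 kinase gene Cdk4 differed by -0.03, 0.14 and -0.01 on its 3 probe sets. Ccne2 lay below the floor on both arrays, at 6.38 and 6.25.

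The E2F and pocket protein genes were dim, none passed the limits, and their median was 0.04. E2f1, an activator, gave -0.12 and 0.03 on its probe sets. E2f3, another activator, differed by 0.04, and E2f4, mainly a repressor in complex with pocket proteins, by 0.18. Rb1, the retinoblastoma gene, reached 6.62 in the shDAB2 clone, which is the floor itself, and 6.50 in the vector clone. Rbl1, which encodes the pocket protein p107, read 6.37 against 6.69, 1.24-fold lower, but it was above the floor in the vector clone alone and its dimmer probe set gave 0.07.

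**Figure D3:**
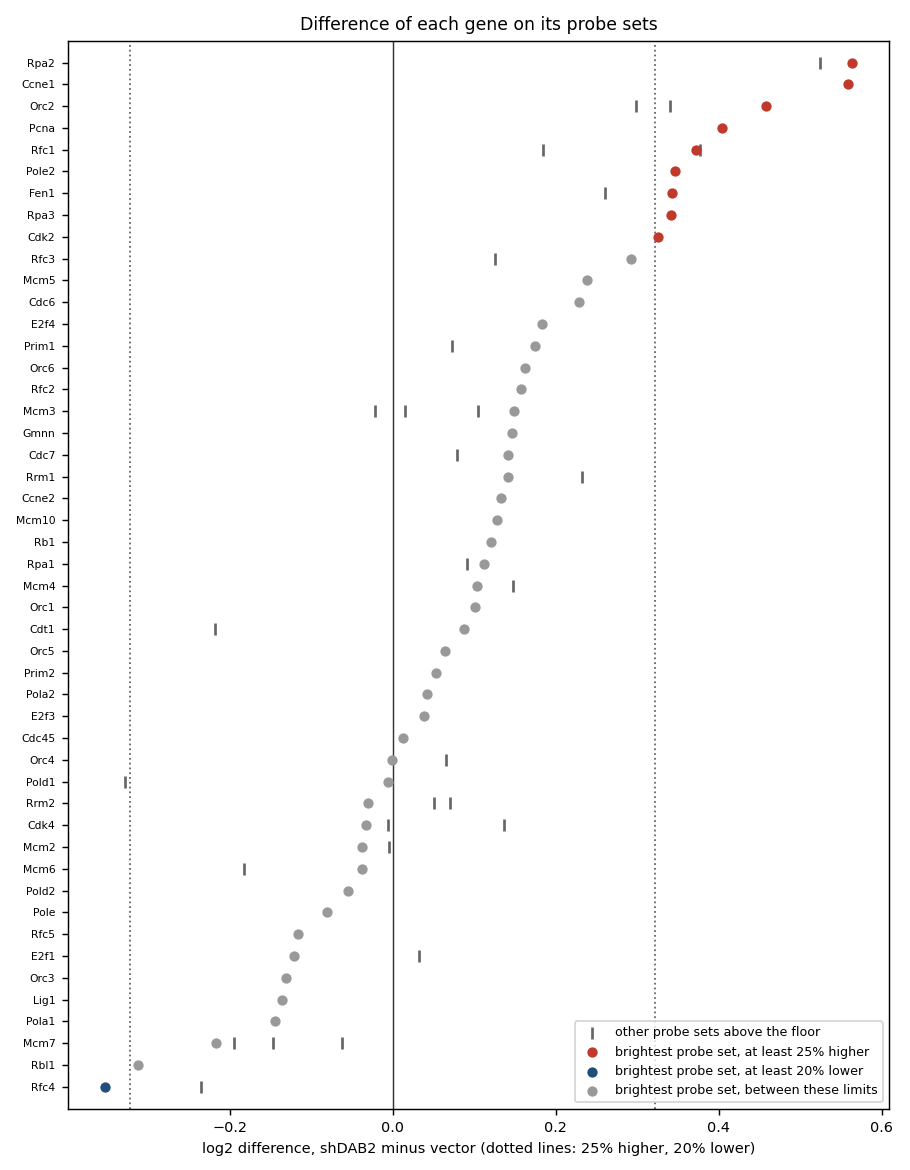
Log2 difference, shDAB2 minus vector (x axis), of the 48 genes in order of size (y axis); circles are the brightest probe set and ticks the other probe sets above the floor, with dotted lines at 25% higher and 20% lower. Rpa2 and Ccne1 lead at 0.56, Rfc4 is lowest at -0.35, and the ticks of Pold1 and Cdt1 lie far from their circles.

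The limit of 25% falls in a dense part of this order. Cdk2 (0.33), Rpa3 (0.34), Fen1 (0.34) and Pole2 (0.35) lay just past it, and Rfc3 (0.29) just inside. The E2F words were also set beside these differences. Of the 16 with a word all passed the floor, 9 read higher, 2 (Pole2 and Cdk2) were at least 25% higher, and the median was 0.06. Of the 24 without a word in the window 16 read higher, 7 were at least 25% higher, 1 was at least 20% lower, and the median was 0.12. Over all genes above the floor the shares were 4.91% higher and 6.07% lower at these limits. The words were chosen after the differences were known, and this split is a description. A window without one of these exact words may still bind E2F factors, and a part of E2F in the differences was not tested.

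Other genes of replication and G1-S control also read higher more often than lower. Of 106 symbols listed 86 were measured and 75 passed the floor. Of these 75, 50 read higher (66.7%, against 50.0% of all genes above the floor) and 25 lower, with a median of 0.12. At least 25% higher were 9 (12.0%, background 4.91%) and at least 20% lower 5 (6.67%, background 6.07%). Above the stricter floor, 8 of 58 were at least 25% higher (background 8.29%) and 5 at least 20% lower (9.87%). With the mean of all probe sets, 3 of 74 were higher at this limit (background 3.63%) and 3 lower (4.95%). The fork accessory list had 12 of 13 genes higher and a median of 0.23. It was led by Wdhd1, which links the helicase to polymerase alpha (0.42), by Tipin of the fork protection complex (0.31) and by Top1, the topoisomerase that relieves supercoiling (0.31). Of the GINS complex of the active helicase, Gins1 differed by 0.29 and Gins4 by 0.24, while Dbf4, the activator of CDC7, differed by -0.27.

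Genes of nucleotide supply and of chromatin assembly also read mostly higher. In the dNTP list 7 of 8 genes did, with a median of 0.24, where 50.0% of all genes above the floor read higher. Dctpp1, a pyrophosphatase that cleans the dCTP pool, read 9.99 against 9.28 and was the only gene of these lists past 1.5-fold, at 1.64-fold higher. Dtymk (thymidylate kinase) differed by 0.31 and Tk1 (thymidine kinase) by 0.28. Among chromatin assembly genes 7 of 10 read higher, with a median of 0.23, led by the histone chaperone gene Asf1a (0.39), Slbp (0.33), whose product binds histone mRNA, and Nasp (0.29 and 0.44 on 2 probe sets). Dnmt1, the maintenance DNA methyltransferase gene of the same list, differed by -0.26 and was named after its value was seen. Supt16 of that list, counted as higher at 0.18, gave -0.38 on its second probe set. Nme1 of the dNTP list, counted as higher at 0.27, gave -0.001 on its second. Supt16 and Nme1 were also named after their values were seen.

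Regulators of the cycle were split. Of 15 cyclin, kinase and Myc family genes above the floor 11 read higher, where 50.0% of all genes above the floor did. Mycn differed by 0.43, Ccnh, the cyclin of the CDK-activating kinase, by 0.42, and Ccnd3, a D-type cyclin, by -0.43. All 4 CDK inhibitor genes above the floor read lower, but this direction depends on the floor. Of the 7 measured, the 3 below the floor read slightly higher: Cdkn2a by 0.06, Cdkn2c by 0.02 and Cdkn1b by 0.005. Among the 4 above it, Cdkn1c (p57) differed by -0.41, Cdkn2b (p15) by -0.17 and Cdkn2d (p19) by -0.07. Cdkn1a (p21) was close to 0 at -0.01, and only Cdkn1c passed the limit. Ddb1 and Cul4b, parts of the ubiquitin ligase that degrades CDT1 in S phase, differed by -0.45 and -0.34, and Skp1 by 0.40. Dtl of the same list, named after its value was seen, differed by 0.14. Of the 5 genes of this list above the floor 2 read higher and 3 lower, with a median of -0.001. The remaining E2F family list had a median of -0.04, with Mybl2 at -0.34, E2f8 at 0.26 and the E2F partner gene Tfdp1 at 0.21. The checkpoint list had a median of 0.03, led by Hus1 (0.35, but 0.05 on its second probe set), Rad1 (0.30) and Etaa1 (0.21).

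Few markers of M phase were measured, and most of these read lower. Of 6 markers 5 were measured, all above the floor, and 4 of them read lower. Of all genes above the floor 50.0% read higher. Ccnb2 (cyclin B2) differed by -0.43, Bub1 by -0.34, Plk1 by -0.20, Aurka by -0.08 and Cdc20 by 0.02. The second probe set of Bub1, below the floor, gave -0.04. At least 20% lower were 2 of the 5 (background 6.07%). The mean level of the 5 markers was 8.89 log2 units in the shDAB2 clone against 9.10 in the vector clone. In RNA from whole cultures a larger share of cells in S phase and more of these RNAs per cell cannot be told apart, and the part of cell cycle phase in the replication gene values was not tested.

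**Figure D4:**
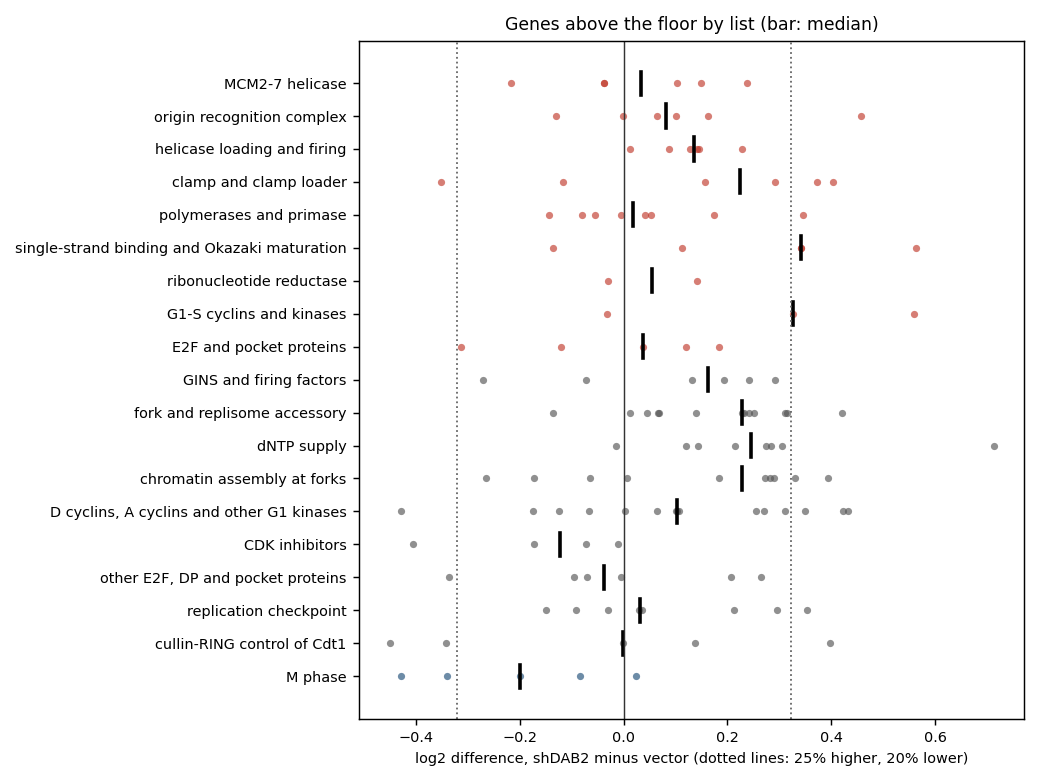
Log2 difference, shDAB2 minus vector (x axis), of each gene above the floor by list (y axis), with black bars at the median of each list and dotted lines at 25% higher and 20% lower; the upper 9 lists hold the 47 members above the floor, the next 9 other pathway genes, and the lowest the M phase markers. On the values as deposited, 2 medians lie farthest to the right: single-strand binding and Okazaki maturation (0.34, 5 genes) and G1-S cyclins and kinases (0.33, 3 genes). The latter is the value of Cdk2, and with Ccne2 of below the floor included it is 0.23. The median of M phase (-0.20, 5 genes) lies farthest to the left.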

How the data were processed

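Biotinylated cRNA from 10 µg of total RNA of each clone was hybridised to 1 array, per the labels' protocols. The authors deposited 1 log2 value per probe set and array, made with RMA (background subtraction, quantile normalization, probe summary) per the submitters' processing notes. The RMA version is not given in the sources used here, nor is the log base: it was taken as 2 because RMA writes log2 values. Values ran from 5.65 to 12.86. For dim probe sets RMA understates differences.

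Of 22626 probe sets, 20380 had 1 gene in the platform annotation and were used. Where a gene had several, the one brightest on average was kept; all 48 members may be named, and of each other list the sole partners of members and up to 3 genes with the largest differences. Members, lists and limits were chosen with earlier results of these data known. The measure was the log2 difference, shDAB2 minus vector. The number of arrays limits precision, and no p-value is given. Counting was tested on simulated data. Alternatives used cyclic loess and quantile normalization (limma 3.58.1, R 4.3.3), median centring, other probe set choices, floors and limits. In the promoter table TATAAA was most frequent starting 29 bases before the start site, so sequences run in the direction of the gene.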

Additional observations from a re-analysis of the deposited data

How the results depend on the processing

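Over the alternatives, 173 values for lists and counts stayed within 1.5 times (counts) or within the probe-set SD of 0.11 (medians), and 25 moved. Of the 10 members past the limits (25% higher, 20% lower) 0 changed sign where measured. Several alternatives could not change a sign. Other floors leave the value of each gene as it was, and so does the mean of all probe sets for a member with only 1. Median centring shifts all differences by the same small amount. Only 5 of the 10 have a second probe set, and 2 of these 5 stayed past the limits on it. A stricter limit can only lower a count and a looser one only raise it. At 1.5-fold 0 members were higher and 0 lower, and 1 and 0 other pathway genes, against 0.578% and 1.62% of all genes. At 1.1-fold the counts were 20 and 4 members and 35 and 11 other genes, against 20.4% and 21.2% of all genes. With the mean of all probe sets, members lower came to 0 and other genes to 3 higher and 3 lower; 7 members stayed at least 25% higher, against 3.63% of all genes. The second probe set exists above the floor for 21 members, and both the counts and the share past the upper limit fell. Of the 21, 15 read higher (71.4%, against 47.7% of all genes). At least 25% higher were 2 (9.52%, against 3.12% of all genes), where the share of members as deposited was 19.1%. At least 20% lower was 1, against 6.87% of all genes. Orc2, Rfc4 and Fen1 were no longer past the limits. Of other pathway genes 3 were higher and 1 lower at these limits. On the second probe set the medians became -0.070 for helicase loading and firing, -0.13 for polymerases and -0.17 for other E2F genes, each over 2 genes. That for dNTP supply was 0.081 over 5 genes. The value for G1-S cyclins and kinases, 0.14, is that of Cdk4 alone. Without _s_at, _x_at and _a_at probe sets 2 members were lower (Pold1 joined Rfc4), and the medians were 0.012 for loading and firing and 0.22 for single-strand binding and Okazaki maturation. With no floor the CDK inhibitor median was -0.012 (-0.12 as deposited). With the stricter floor the median of the list with the Cdt1 ligase genes was -0.17 (-0.001 as deposited). The cause was not tested beyond the fewer or added genes. Cyclic loess left 7 members higher (4.47% of all genes), without Fen1 and Cdk2, and a median of 0.07. The share of members higher ran from 66.0% to 71.4%. Single arrays give no estimate of the spread between cultures. No paired analysis was possible because each group holds 1 array.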
